A study of Mus musculus with 13 samples.

Results

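The genes described here are 9 secreted defence proteins of the lung and airways: the paralogous lysozymes Lyz1 and Lyz2, lactoferrin (Ltf), lipocalin 2 (Lcn2), the PLUNC-family proteins Bpifa1 and Bpifb1, the C-type lectin Reg3g, the acidic chitinase Chia1, and the polymeric immunoglobulin receptor Pigr. They were found by gene symbol, as 9 of the 32544 symbols in the count table, and were chosen partly for the fall of Lyz1 in hyperoxia. All 9 passed the filter on low counts that left 12496 genes for testing. Each value comes from the whole lung of a wild-type male C57BL/6J mouse, bought at 7 weeks of age and kept for 5 days in either room air (Normoxia, 21% oxygen, 7 libraries) or raised oxygen (Hyperoxia, 80% oxygen, 6 libraries). The age is that at purchase, and the paper gives an older range for mice in its experiments. Lungs were perfused with cold buffered saline before RNA was extracted with TRIzol, and 3′-end libraries were made with the QuantSeq method and counted per gene. No genotype or drug differed between the groups, and the labels give each library as its own sample without an animal number, so p-values measure the spread between these samples. Because lungs were sampled whole, a lower value can come from fewer cells of a type or from less RNA per cell, and these cannot be told apart.

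Secreted defence proteins coat the airway and alveolar surface and kill, starve or aggregate microbes before they reach the epithelium. Lysozymes cleave the peptidoglycan of bacterial walls; in the mouse, Lyz2 is known as the lysozyme of macrophages, neutrophils and alveolar type 2 cells, whereas Lyz1 is best known from Paneth cells of the intestine. Lactoferrin and lipocalin 2 withhold iron, the latter by binding bacterial siderophores. Bpifa1 and Bpifb1 are made by the epithelium and glands of the upper airways, Reg3g binds peptidoglycan of Gram-positive bacteria, Chia1 digests chitin, and Pigr carries polymeric IgA and IgM across the epithelium into the secretions.

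The lysozyme genes lie side by side on the minus strand of chromosome 10 (GRCm38), Lyz2 at chr10:117277331-117282321 and Lyz1 at chr10:117287797-117292868, with 5475 bases between them. Both have 4 exons, and no other annotated gene overlaps either. Their coding sequences of 447 bases were identical at 425 positions (95.1%), and their sequences after the stop codon, where 3′-end reads fall, at 756 of 785 aligned positions (96.3%). To illustrate this likeness, the most different stretch of 90 coding bases (positions 43 to 132, in exon 1 of 4, 13 differences) is shown first. It is written 5′ to 3′ on the coding strand with the differing bases in capitals. This stretch and the one after it are coding sequence, so they do not measure how 3′-end reads are told apart.
Lyz1, chr10:117292707-117292796, minus strand: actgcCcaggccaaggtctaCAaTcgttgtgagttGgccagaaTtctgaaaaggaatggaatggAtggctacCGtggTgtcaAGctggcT
Lyz2, chr10:117282111-117282200, minus strand: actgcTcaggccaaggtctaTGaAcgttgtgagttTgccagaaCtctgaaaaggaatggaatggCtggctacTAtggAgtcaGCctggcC
The final 90 coding bases, positions 358 to 447 in exons 3 and 4, are shown for contrast because only 2 bases differ there. The coordinates span the intron between these exons.
Lyz1, chr10:117288583-117289141, minus strand: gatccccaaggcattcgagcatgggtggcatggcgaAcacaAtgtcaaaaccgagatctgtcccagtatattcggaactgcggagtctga
Lyz2, chr10:117278121-117278665, minus strand: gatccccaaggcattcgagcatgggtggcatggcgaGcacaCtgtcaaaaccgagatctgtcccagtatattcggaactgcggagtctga

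A stretch of 31 bases was used as the unit of matching. Of the 270 such stretches in the last 300 bases of the Lyz1 transcript, 93 (34.4%) also occur in Lyz2, and 92 of 270 (34.1%) of those of Lyz2 occur in Lyz1. Reads from shared stretches can be placed only by the counting program, so the split between the paralogs is less certain than their sum. The other 7 members shared no such stretch with another gene in their last 300 bases.

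The other members lie apart from the lysozymes, except that Bpifa1 and Bpifb1 are neighbours. Bpifa1 is at chr2:154142880-154149219 and Bpifb1 at chr2:154190818-154220369, both on the plus strand with 41598 bases between them. Lcn2 is on the minus strand of the same chromosome, at chr2:32384633-32388252. Ltf lies at chr9:111019271-111042767 (plus strand), Reg3g at chr6:78466269-78468872 (minus strand), Chia1 at chr3:106113229-106132120 (plus strand) and Pigr at chr1:130826684-130852249 (plus strand). No annotated gene overlaps any of them.

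Total counts ran from 1607111 to 3387736 in Normoxia and from 2029006 to 4540288 in Hyperoxia, so that a count of 3, taken as the floor, corresponded to between 0.656 and 1.84 CPM (counts scaled to the library total, corrected by the trimmed mean of M values). One library, Hyperoxia replicate 1, stood apart: its correlation across genes with the others was 0.721 to 0.833, against 0.854 to 0.967 among the remaining 12 libraries. It was also the lowest Hyperoxia library for 7 members, and the fold change of each member without it is given beside its value. The library names also fall into letters B to M (5 Normoxia and 3 Hyperoxia libraries, among them Hyperoxia replicate 1) and O to S (2 and 3 libraries). The labels do not call these a batch, and differences in mean log2 CPM within each letter set are given beside the pooled values.

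Both lysozymes were lower in Hyperoxia in every library. Lyz1 measured 70.8 CPM in the lowest Normoxia library, 139 in the median and 228 in the highest. In Hyperoxia it measured 4.85, 9.53 and 16.2 CPM in the same order. The groups did not overlap, with every Hyperoxia library far below the lowest Normoxia library. Mean levels were 133 ± 53.5 CPM (SD, n = 7) and 9.97 ± 4.78 CPM (SD, n = 6), a log2 fold change of −3.72 (SE 0.34, and −3.61 without Hyperoxia replicate 1) or 13.1-fold lower, which is a description with no test because the group of genes was chosen by this fall.

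Lyz2, the lysozyme of phagocytes and alveolar type 2 cells, fell 4.83-fold. Its level was 1963 CPM in the lowest Normoxia library, 3146 in the median and 3718 in the highest, and in Hyperoxia 160, 647 and 1096. The groups did not overlap, and the lowest value, 160 CPM, was Hyperoxia replicate 1. Means were 2947 ± 718 CPM (SD, n = 7) and 609 ± 329 CPM (SD, n = 6), and the log2 fold change was −2.27 (SE 0.35, edgeR adjusted p = 2.5e-04). Without Hyperoxia replicate 1 the log2 fold change was −2.06 (edgeR adjusted p = 1.5e-05). The differences in mean log2 CPM within letter sets were −3.06 (B to M) and −1.61 (O to S) for Lyz2, and −4.00 and −2.97 for Lyz1.

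Summed over both genes, which sets aside the split of shared reads, lysozyme counts ranged from 2034 to 3926 CPM in Normoxia and from 166 to 1112 CPM in Hyperoxia. The summed log2 fold change was −2.31 (SE 0.35), or 4.97-fold lower, again with no test since Lyz1 is part of the sum. Lyz1 made up 4.19 ± 0.797% of the lysozyme counts in Normoxia (range 3.48 to 5.80%, n = 7) and 1.89 ± 0.940% in Hyperoxia (0.731 to 3.55%, n = 6). The highest Hyperoxia share was replicate 1, where 11 of 310 lysozyme counts gave an exact 95% interval of 1.78 to 6.26%, so that its share could not be placed on either side of the Normoxia range at this depth. Without that library the mean share in Hyperoxia was 1.56%. The intervals and floors cover counting error only, since the deposited counts carry no molecular identifiers.

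**Figure D1:**
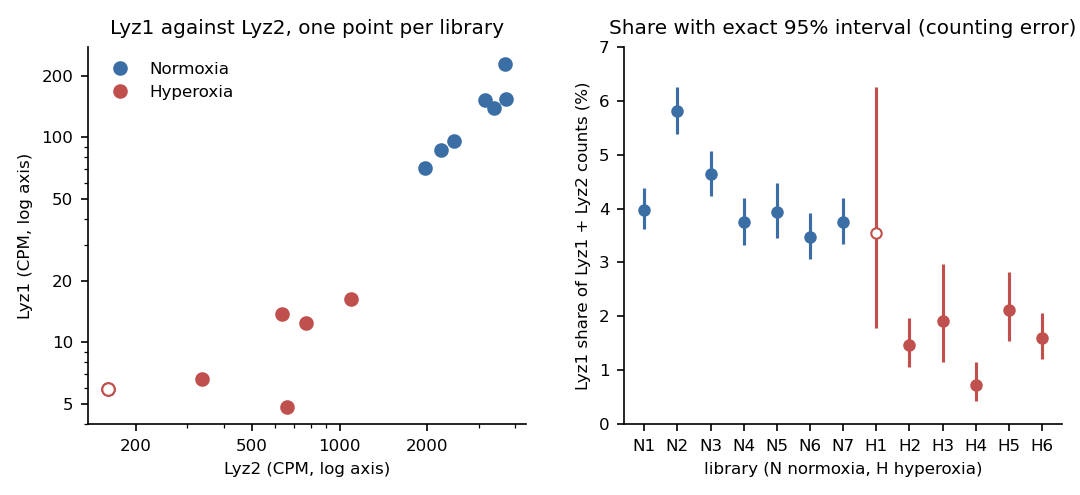
Left, Lyz1 against Lyz2 in TMM-scaled CPM on log axes, one point per library (blue Normoxia, red Hyperoxia, open circle Hyperoxia replicate 1); right, the percentage of lysozyme counts assigned to Lyz1 in each library, with bars for the exact 95% interval. The Hyperoxia points lie below and to the left of all Normoxia points, and the shares of Hyperoxia replicates 2 to 6 lie below the Normoxia minimum of 3.48%.

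The 8 members other than Lyz1 moved in both directions. Lcn2 and Pigr rose, Lyz2 and Bpifb1 fell, and Ltf, Bpifa1, Reg3g and Chia1 did not pass the test (edgeR, adjusted p under 0.05). Called members were thus 4 of 8, where 22.6% of the 12496 genes tested were called, 11.8% higher and 10.8% lower. The called members were again 4 of 8 without Hyperoxia replicate 1, and over the 12752 genes then tested 15.2% were called higher and 13.3% lower. Among these 8, the groups did not overlap for Lyz2 alone, which was lower, where 10.8% of all genes tested did not overlap, 5.6% higher and 5.23% lower. Lyz1 did not overlap either, but its fall was used to choose the genes and is not counted.

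**Figure D2:**
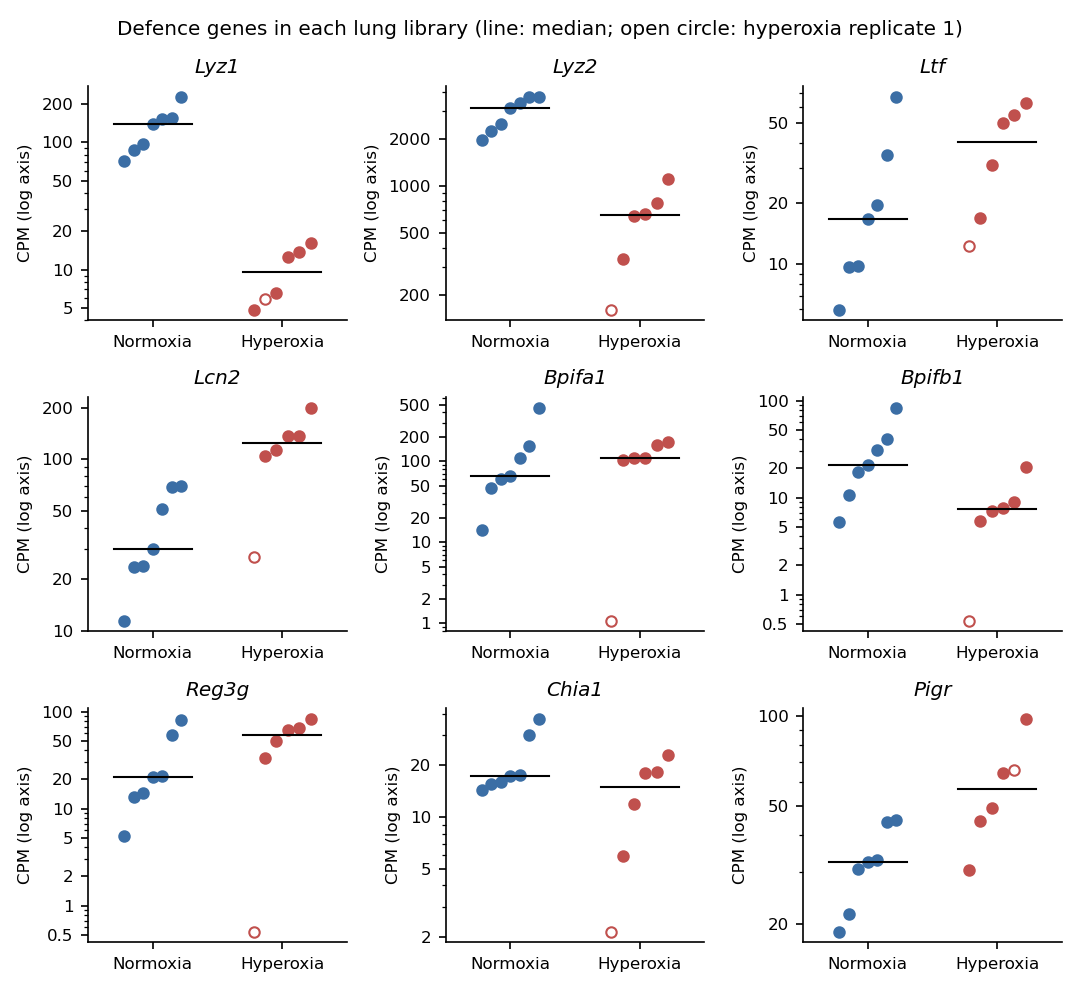
TMM-scaled CPM of the 9 members in each library on log axes, with Normoxia in blue, Hyperoxia in red, a line at each median and an open circle for Hyperoxia replicate 1. Lyz1 and Lyz2 separate the groups, Lcn2 does so except for the open circle at 26.8 CPM, and the remaining members overlap.

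The iron-withholding proteins differed in how clearly they moved. Lcn2 measured 11.4 CPM in the lowest Normoxia library, 30.0 in the median and 70.2 in the highest. The Hyperoxia values, by replicate 1 to 6, were 26.8, 200, 105, 137, 113 and 136 CPM. All but replicate 1 lay above every Normoxia library. Means were 39.8 ± 23.5 CPM (SD, n = 7) and 120 ± 56.5 CPM (SD, n = 6), a 3.01-fold rise with a log2 fold change of 1.59 (SE 0.42, edgeR adjusted p = 0.0126). Without replicate 1 the log2 fold change was 1.81 (edgeR adjusted p = 8.2e-04). Within letter sets the difference in mean log2 CPM was 0.88 (B to M) and 2.92 (O to S).

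Ltf, an iron-binding protein of glands and neutrophil granules, measured 5.97, 16.7 and 67.4 CPM in the lowest, median and highest Normoxia library and 12.3, 40.4 and 62.5 CPM in Hyperoxia. The groups overlapped over almost the whole range, although 5 of 6 Hyperoxia libraries lay above the Normoxia median. The log2 fold change of 0.74 (SE 0.50) did not pass the test (edgeR adjusted p = 0.321), nor did 0.95 without Hyperoxia replicate 1 (edgeR adjusted p = 0.143), and within letter sets the difference was 0.21 (B to M) and 1.73 (O to S). Neutrophil markers, whose cells store both proteins in granules, summed to 106 to 209 CPM in Normoxia and 48.3 to 250 CPM in Hyperoxia. The 5 of 11 such markers that could be tested had edgeR adjusted p from 0.0606 to 0.976. Without Hyperoxia replicate 1, 1 of them, the protease Mmp9, was lower (log2 fold change −1.36, edgeR adjusted p = 0.0157). Over all genes in that fit 13.3% were lower. Elane, neutrophil elastase, had 0 counts in every library. The part of neutrophils in the Lcn2 rise was not tested.

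Bpifb1, a lipid-binding PLUNC-family protein of airway secretions, fell, whereas its neighbour Bpifa1 did not pass the test. Bpifb1 measured 5.60 CPM in the lowest Normoxia library, 21.4 in the median and 84.5 in the highest, and in Hyperoxia 0.536, 7.55 and 20.6. No Hyperoxia library exceeded the Normoxia median, but the ranges overlapped, and the lowest value was a single count in Hyperoxia replicate 1. Means of 30.3 ± 26.6 CPM (SD, n = 7) and 8.48 ± 6.64 CPM (SD, n = 6) gave a log2 fold change of −1.77 (SE 0.59, edgeR adjusted p = 0.0400), and −1.53 without replicate 1 (edgeR adjusted p = 0.0401). The difference within letter sets was −2.76 (B to M) and −0.39 (O to S). This call lay at the threshold and was lost under 10 of the alternative settings, among them limma-voom (adjusted p = 0.119), a term for the letter set in edgeR (adjusted p = 0.0781) and leaving out Normoxia replicate 5 (edgeR adjusted p = 0.104).

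Bpifa1, a surface-active protein of airway lining fluid, spanned the widest range of the members. Its Normoxia libraries measured 14.2, 60.8, 66.4, 153, 458, 46.3 and 109 CPM for replicates 1 to 7, a 32.3-fold spread. Hyperoxia replicates 1 to 6 measured 1.07, 108, 104, 174, 157 and 109 CPM. The last 5 lay within a 1.68-fold span and inside the Normoxia range, while replicate 1 held only 2 counts. The log2 fold change was −0.23 (SE 0.71, edgeR adjusted p = 0.850), and its sign changed to 0.048 without Hyperoxia replicate 1 and to 0.55 without Normoxia replicate 5. Within letter sets the difference was −1.64 (B to M) and 1.01 (O to S). The B to M value includes Hyperoxia replicate 1, at 0.80 log2 CPM, beside 6.77 and 6.71 in replicates 2 and 3. The Normoxia libraries of that set ran from 3.89 to 8.84.

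Reg3g, a lectin that kills Gram-positive bacteria, measured 5.23, 21.2 and 82.1 CPM in the lowest, median and highest Normoxia library and 0.536, 57.1 and 84.7 CPM in Hyperoxia. The groups overlapped, with 5 of 6 Hyperoxia libraries above the Normoxia median and replicate 1 below all others at 1 count. The log2 fold change was 0.75 (SE 0.63, edgeR adjusted p = 0.436), and 1.03 without replicate 1 (edgeR adjusted p = 0.112). Its differences within letter sets had opposite signs, −0.79 (B to M) and 1.84 (O to S). The B to M value includes Hyperoxia replicate 1, at 0.27 log2 CPM, beside 6.09 and 5.09 in replicates 2 and 3. The Normoxia libraries of that set ran from 2.56 to 6.37.

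**Figure D3:**
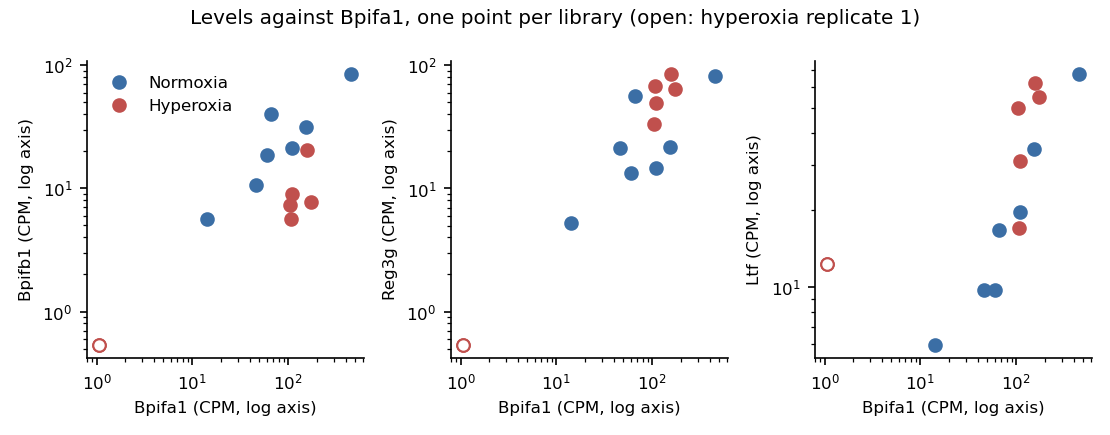
Bpifb1, Reg3g and Ltf against Bpifa1 in TMM-scaled CPM on log axes, one point per library (blue Normoxia, red Hyperoxia, open circle Hyperoxia replicate 1). In the left panel Hyperoxia replicates 2 to 6 lie at lower Bpifb1 than Normoxia libraries of like Bpifa1, and Hyperoxia replicate 1 lies at the bottom left of the first and middle panels with 2 counts of Bpifa1.

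These 3 airway proteins and Ltf had like profiles from library to library. On log2 CPM centred on each group, over 13 libraries, Bpifb1 was most like Bpifa1 (Pearson r = 0.90, Spearman rho = 0.82) and Reg3g (r = 0.89, rho = 0.87) among 7896 genes compared. Without Hyperoxia replicate 1 these r values were 0.86 and 0.84, at rank 2 and 5, so that Bpifa1 was no longer the nearest. Both Bpifa1 (r = 0.94, rho = 0.91) and Reg3g (r = 0.96, rho = 0.90) were most like Scgb3a1, a secretoglobin of upper airway secretory cells, with r of 0.80 and 0.86 without that library, where Scgb3a1 was no longer the nearest gene to either (rank 7 for Bpifa1 and 2 for Reg3g). Ltf gave r of 0.80 with Bpifa1, 0.86 with Bpifb1 and 0.67 with Reg3g. These coefficients describe libraries that share depth and tissue make-up and were not tested. Goblet and gland markers, which include Scgb3a1, summed to 78.4 to 416 CPM in Normoxia and 7.51 to 129 CPM in Hyperoxia, with replicate 1 at 7.51 and the others from 58.4. Scgb3a1 alone measured 64.4 to 374 CPM in Normoxia and 3.22 to 117 CPM in Hyperoxia. Of 8 such markers 3 could be tested, and 0 passed with all libraries. Without replicate 1, Tff2, a trefoil factor of mucus, was lower (log2 fold change −1.42, edgeR adjusted p = 0.0448, against 0.0504 with it). Muc5b and Scgb3a1 did not pass in that fit (edgeR adjusted p = 0.0747 and 0.284), where 13.3% of all genes tested were lower. Within this list Dmbt1 had 0 counts in Normoxia and Lpo in Hyperoxia, but each had a total of only 1 count over all libraries. The part of airway sampling in these values was not tested.

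Chia1, which degrades chitin, measured 14.4 CPM in the lowest Normoxia library, 17.2 in the median and 37.4 in the highest. In Hyperoxia the replicates 1 to 6 measured 2.14, 23.1, 5.91, 18.3, 11.9 and 17.9 CPM. The groups overlapped, and 3 of the 6 Hyperoxia libraries lay below the Normoxia minimum. The log2 fold change of −0.64 (SE 0.39) did not pass the test (edgeR adjusted p = 0.273), and was −0.42 without replicate 1. Its differences within letter sets were −1.54 (B to M) and −0.06 (O to S).

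Pigr, the transporter of IgA and IgM, rose 1.83-fold. It measured 18.9, 32.3 and 44.7 CPM in the lowest, median and highest Normoxia library. The Hyperoxia replicates 1 to 6 measured 65.9, 98.2, 49.3, 30.4, 64.7 and 44.4 CPM. Of these, 4 lay above every Normoxia library and 1, at 30.4 CPM, lay below the Normoxia median. Means were 32.2 ± 9.91 CPM (SD, n = 7) and 58.8 ± 23.4 CPM (SD, n = 6), a log2 fold change of 0.87 (SE 0.26, edgeR adjusted p = 0.0244; 0.85 without replicate 1), with differences of 1.25 (B to M) and 0.22 (O to S) within letter sets. Settings that ended the call included limma on the deposited log10 values (adjusted p = 0.0556) and leaving out Hyperoxia replicate 2 (edgeR adjusted p = 0.0592).

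**Figure D4:**
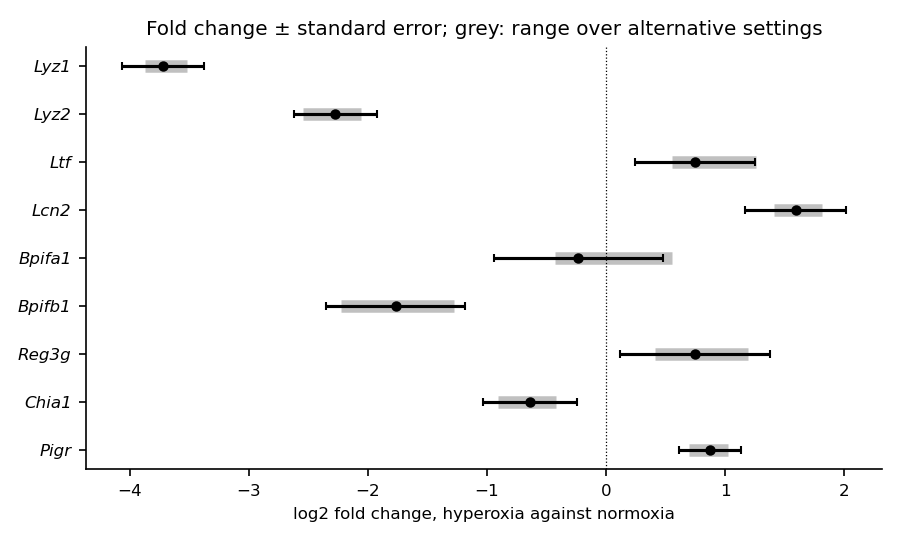
Log2 fold changes (Hyperoxia against Normoxia, edgeR) of the 9 members with bars for the standard error and, in grey, the range over all alternative settings. Lyz1 and Lyz2 lie farthest below 0, Lcn2 and Pigr lie above it in every setting, and the range of Bpifa1 crosses 0.

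The IgM heavy chain and the joining chain, which Pigr carries, were lower, and the IgA heavy chain did not pass the test. Every gene list here was chosen with earlier results of these data known, so its share of calls is a description. Of 14 listed genes of immunoglobulins and antibody-secreting cells, 8 were tested and 6 fell, where 10.8% of all genes tested were lower. Their median log2 fold change was −1.66, against −0.03 over all genes. None rose by edgeR, whether at an adjusted p or an unadjusted p under 0.05, nor by DESeq2 or limma-voom. Ighm, the IgM heavy chain, measured 75.8 to 132 CPM in Normoxia and 4.83 to 36.5 CPM in Hyperoxia, with no overlap (log2 fold change −2.21, edgeR adjusted p = 1.8e-04). Igkc, the kappa light chain constant region, also fell (log2 fold change −2.09, edgeR adjusted p = 0.00267), as did Jchain, which joins IgA and IgM into the polymers that Pigr binds (−1.39, edgeR adjusted p = 0.0237). Iglc2 (−1.93) and Iglc3 (−2.34) fell too, but are near-identical copies whose reads may be split between them, and Igkc overlaps a non-coding gene on its own strand. The IgA heavy chain Igha had means of 10.9 and 6.12 CPM (edgeR adjusted p = 0.227).

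Among 70 other listed defence genes, some of them membrane proteins such as Muc1, 21 had 0 counts in all libraries and 21 could be tested. Of these, 7 fell and 0 rose, against 10.8% lower and 11.8% higher over all genes tested, which again only describes the list. Their median log2 fold change was −0.79, and 2 values lay above 0. At an unadjusted p under 0.05, 11 were lower and 0 higher by edgeR, and DESeq2 and limma-voom likewise called 0 higher. Without Hyperoxia replicate 1, 10 fell and 1 rose, against 13.3% lower and 15.2% higher over all genes then tested. The one that rose was Chil3, a chitinase-like protein of alveolar macrophages, with a log2 fold change of 1.02 (edgeR adjusted p = 5.2e-04) against 0.76 (edgeR adjusted p = 0.235) with all libraries. Chil3 is named because it is the only such call, and was chosen after its values were seen. The 7 other genes of the lysozyme family on the list were too low to test, and 5 of them had 0 counts.

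The genes that fell include surface proteins of distal airway and alveolus. Scgb1a1, the main secretory protein of club cells, measured 13447 to 51496 CPM in Normoxia and 162 to 9239 CPM in Hyperoxia, where the lowest library was replicate 1 and the next lay at 2776 CPM. The groups did not overlap, and the log2 fold change was −2.96 (SE 0.59, edgeR adjusted p = 0.00188). Sftpa1, the surfactant collectin that opsonises microbes, measured 6398 to 8242 CPM against 1360 to 3536 CPM, again with no overlap (log2 fold change −1.69, edgeR adjusted p = 3.5e-05). Muc1, a membrane mucin, fell (log2 fold change −2.27, edgeR adjusted p = 0.00168), as did Chil1, a chitinase-like protein (−1.05, edgeR adjusted p = 0.00149). Ang, an antimicrobial ribonuclease, fell by 2.67 (edgeR adjusted p = 3.4e-04), but overlaps Rnase4 on the same strand, so that their reads may not be told apart.

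**Figure D5:**
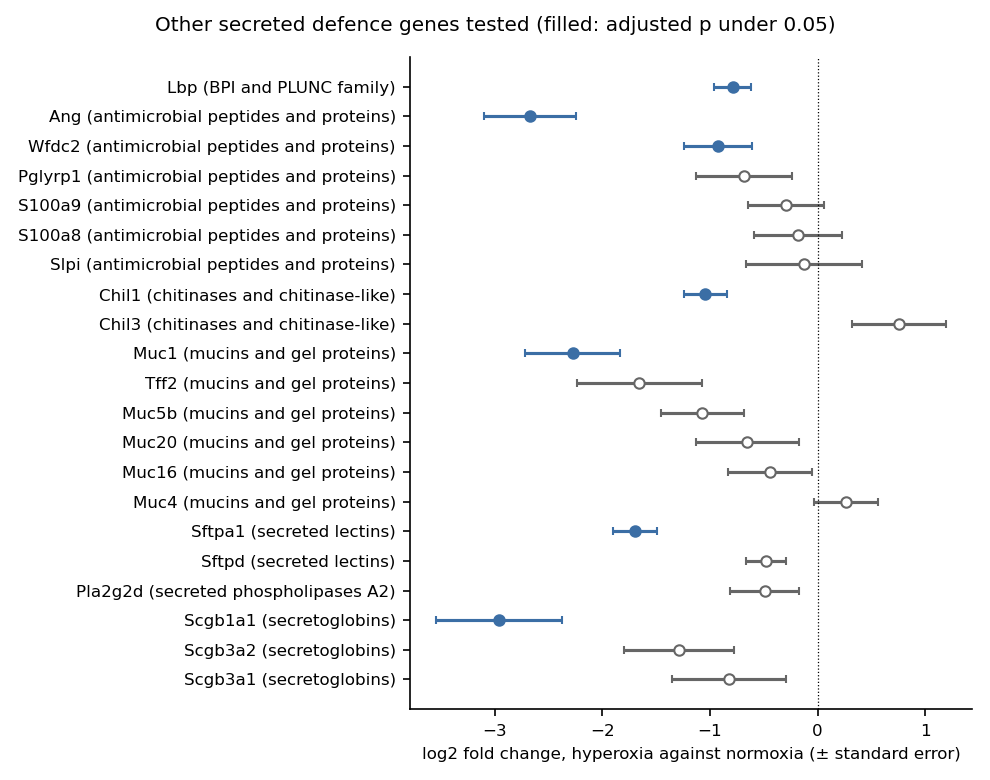
Log2 fold changes (Hyperoxia against Normoxia, edgeR) with standard errors for the 21 other listed defence genes that could be tested, grouped by kind. Filled points passed an adjusted p under 0.05. All 7 filled points lie below 0, and Chil3 and Muc4 are the 2 genes above it.

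Of 35 listed cytokines, receptors and transcription factors known to regulate these genes, 27 were tested, 5 rose and 2 fell (median log2 fold change 0.17), which is close to the 22.6% called in either direction over all genes tested. Without Hyperoxia replicate 1, 6 rose and 2 fell, the added gene being Socs3, a feedback inhibitor of cytokine signalling (1.41, edgeR adjusted p = 0.00179), against 15.2% higher and 13.3% lower over all genes in that fit. Cebpd, a factor of the acute-phase response, rose by 1.46 on the log2 scale (edgeR adjusted p = 0.00238); its libraries spanned 76.7 to 210 CPM in Normoxia and 133 to 622 CPM in Hyperoxia, with overlap. Il4ra, the shared receptor chain for interleukins 4 and 13, rose by 1.22 (edgeR adjusted p = 0.00151) and Tlr4, the lipopolysaccharide receptor, by 1.17 (edgeR adjusted p = 7.1e-04), both without overlap. Stat3 rose by 0.71 (edgeR adjusted p = 0.0150) and Nfkbia, an inhibitor of NF-kB, by 0.61 (edgeR adjusted p = 0.0220). Nfkb1 fell (log2 fold change −0.85, edgeR adjusted p = 0.00706), as did the alarmin Il33 (−0.86, edgeR adjusted p = 0.0156). Il17a and Il22, cytokines that induce Lcn2 and Reg3g in epithelia, had 0 counts in all 13 libraries, whereas Il17f, which shares a receptor with Il17a, had means of 9.56 and 8.44 CPM (edgeR adjusted p = 0.647). Cebpd, Il4ra and Stat3 each overlap a gene on the opposite strand, and Nfkb1 overlaps one on its own strand.

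Of 9 listed receptors and sensors of these proteins or their products, which take up lactoferrin or lipocalin 2, sense peptidoglycan or bind immunoglobulins, 5 were tested, 1 rose and 1 fell, where 22.6% of all genes tested were called in either direction. Lrp2 (megalin), which takes up lipocalin 2 and lactoferrin, measured 34.9 to 50.9 CPM in Normoxia and 14.7 to 25.6 CPM in Hyperoxia, with no overlap (log2 fold change −1.02, edgeR adjusted p = 4.1e-04). Lrp1, a receptor for lactoferrin, measured 41.0 to 63.1 CPM against 47.2 to 87.5 CPM, with overlap (log2 fold change 0.49, edgeR adjusted p = 0.0356), and overlaps an antisense gene. The Lrp1 call was not made under 10 of 21 alternatives, among them library size alone and a term for the letter set. Without Hyperoxia replicate 1, which was the lowest Hyperoxia library, Lrp1 was at 0.60 (edgeR adjusted p = 0.00277). The next lowest Hyperoxia library lay at 63.6 CPM.

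Markers of the cell types that make these proteins moved as well, to be read against 10.8% lower and 11.8% higher over all genes tested (13.3% and 15.2% without Hyperoxia replicate 1). The 11 alveolar type 2 markers summed to 15750 to 27204 CPM in Normoxia and 4779 to 9011 CPM in Hyperoxia, without overlap, and 8 of them fell (9 without Hyperoxia replicate 1). Among 14 alveolar macrophage markers 6 fell and 1, Mrc1, rose; their sum was 486 to 717 CPM in Normoxia, 663 to 919 CPM in Hyperoxia replicates 2 to 6 and 249 CPM in replicate 1. Without replicate 1, 3 alveolar macrophage markers rose (Mrc1, Chil3 and Atp6v0d2) and 5 fell. Those that fell were Fabp1 (log2 fold change −5.36), Ear1 (−2.83), Ear2 (−1.82), Siglecf (−1.16) and Itgax (−0.94). Fabp1 and Ear1 lay near the floor in Hyperoxia, with means of 0.109 and 1.16 CPM over all its libraries. Chil3, at 230 to 456 CPM in Hyperoxia replicates 2 to 6, was a large part of the alveolar macrophage sum. The sum over 9 markers of monocytes and interstitial macrophages was 302 to 378 CPM in Normoxia, 219 to 244 CPM in Hyperoxia replicates 2 to 6 and 502 CPM in replicate 1, with 2 markers lower and 1 higher in all libraries, and 4 lower without replicate 1, where the higher marker Ms4a7 had an edgeR adjusted p = 0.0764. Club cell markers summed to 14753 to 53509 CPM and 575 to 10246 CPM, and 4 of 6 fell (6 of 6 without replicate 1). Scgb1a1 was most of this sum in Normoxia, with 51496 of 53509 CPM in replicate 1. Some genes stand in both the defence and the marker lists, among them Scgb1a1, Scgb3a1, Sftpa1 and Chil3. Their calls here repeat those given above. Ciliated cell markers summed to 235 to 532 CPM and 139 to 231 CPM, and 3 of 7 fell (4 without replicate 1). Of 5 basal cell markers 1 could be tested and fell, and their sum was 7.52 to 20.8 CPM and 1.61 to 8.31 CPM. Trp63 had 0 counts in Hyperoxia, and a total of only 5 over all libraries. Markers of several cell types thus moved beside the lysozymes, those of macrophages in both directions, and the part of any of them in the lysozyme fall was not tested.

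The genes most like 4 of the remaining members, over the same 13 libraries centred on each group, were of mixed kinds. Lyz1 was most like Muc1 (r = 0.86, rho = 0.83), whereas Lyz1 and Lyz2 gave r = 0.69 with each other. Lcn2 was most like H2-Ab1, an MHC class II chain (r = 0.96, rho = 0.90), Ltf like the chaperone Dnaja1 (r = 0.88, rho = 0.86) and Pigr like the endothelial sialomucin Emcn (r = 0.80, rho = 0.77). Without Hyperoxia replicate 1 the r values with these partners were 0.84 for Lyz1, 0.93 for Lcn2, 0.86 for Ltf and 0.81 for Pigr, but none of the 4 was then the nearest gene (rank 6 for Muc1, 4 for H2-Ab1, 3 for Dnaja1 and 3 for Emcn). They are descriptions with no test.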

How the data were processed

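Mouse lung RNA in 13 samples (7 Normoxia, 6 Hyperoxia) was measured by 3′-end sequencing, 1 library per sample. The authors pseudoaligned reads with kallisto (0.46.1 in the paper's methods) through BioJupies. They deposited raw whole-number counts by gene symbol, and log10 values, which equalled log10 of CPM plus 1 recomputed from the counts. The submitters' processing notes name mm10 (GRCm38) and limma 3.54.2; the annotation is not given in the sources used here. Gene positions and sequences came from GENCODE M21 on GRCm38. All columns mapped to labelled samples.

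From the counts, genes were tested with edgeR 4.0.16 (filterByExpr, TMM, glmQLFit and glmQLFTest, Benjamini-Hochberg over 12496 genes) in R 4.3.3, a count test chosen in place of the study's limma on CPM because counts were available. Standard errors were the log2 fold change over the square root of F, and log2 CPM used a prior count of 2. Alternatives were DESeq2 1.42.0, limma 3.58.1 (voom, and on the log10 values), library size alone, testing all genes, a minimum of 10 counts per library, a replicate block, the letter set as a term, and leaving out each library. The fits were tested on simulated data. Replicates of one group differed by more than sampling noise in all 36 pairs. Totals per library limit precision as given with the results.

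The members and gene lists were chosen with earlier results of these data known, and Lyz1 was given no test. Named genes were the 9 members, the up to 5 largest changes in each direction past the threshold per list (mean log2 CPM 2 or more), and for likeness the 3 most similar genes (mean log2 CPM 4 or more), of which the nearest are printed; those of Lyz2 and Chia1 are not reported here. Igha, Il17f, Chil3, Muc4, Mrc1, Atp6v0d2, Mmp9, Ms4a7, Tff2 and Socs3 were named after their values were seen. So were Fabp1, Ear1, Ear2, Siglecf, Itgax, Muc5b and the genes given at 0 counts (Elane, Dmbt1, Lpo, Trp63, Il17a, Il22).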

Additional observations from a re-analysis of the deposited data

Results flagged for a closer look

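In 6 of 38 checked sets of libraries, 1 library lay far from the others of its group, and in each it was Hyperoxia replicate 1. Chance would be expected to give about 2 of 38 if the sets were independent. They are not, since the lysozyme sets share counts and members such as Bpifa1 and Reg3g vary together. Those 2 genes gave r = 0.76 within groups without Hyperoxia replicate 1. The measure is the distance on the log2 CPM scale between the extreme library and its neighbour, as a fraction of the whole spread of the 6 Hyperoxia libraries (Dixon's test, 95% critical value). For members, the library was low in Bpifa1 (0.888, with 1.07 CPM against 104 to 174 CPM), Reg3g (0.784, with 0.536 CPM against 33.4 to 84.7 CPM) and Lcn2 (0.675, with 26.8 CPM against 105 to 200 CPM). It was also low in the sums of alveolar macrophage markers (0.750) and of goblet and gland markers (0.721), and high in the sum of monocyte and interstitial macrophage markers (0.869).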

How the results depend on the processing

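Lyz1 (−3.87 to −3.51), the lysozyme sum (−2.55 to −2.10) and Lyz2 (−2.51 to −2.06) kept their direction when each library was left out, and Lyz2 stayed past the threshold in every setting run. Of 2 members that rose, 1 remained called with limma on the log10 values and 0 with a replicate block; without 1 library the count was 1 to 2. Of 2 that fell, 1 was called with limma-voom, limma on the log10 values, at least 10 counts in every library (4 of 8 tested) or the letter set as a term, and 1 to 2 without 1 library. Bpifb1 ranged from −2.22 to −1.27 without 1 library and lost its call without Normoxia replicate 3, 4 or 5 or Hyperoxia replicate 2, 3, 4 or 6. Bpifa1 ranged from −0.43 to 0.55, turning to 0.048 without Hyperoxia replicate 1.

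Of the lists, the receptors had 0 higher with library size alone, limma on the log10 values, at least 10 counts, the replicate block or the letter set, 0 to 1 without 1 library, and 2 lower with no filter. The defence list had 1 higher with no filter and 0 to 1 without 1 library. The regulators had 3 higher with the replicate block, and the immunoglobulin list 1 lower of 2 tested at 10 counts. The cause was not tested, other than that fewer genes were tested at 10 counts. Replicate numbers did not pair the libraries (r of −0.33 to 0.27 between deviations of the same number); with the replicate block Lcn2 was 1.56 (edgeR adjusted p = 0.0886) and Pigr 0.83 (edgeR adjusted p = 0.147). Limma on the log10 values moved the median of all genes from −0.03 to −0.16. Bpifa1, Bpifb1, Reg3g and Chia1 had under 10 counts in Hyperoxia replicate 1, which was not the library with the lowest total.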

Other observations

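The ratio of the neighbouring genes Bpifb1 and Bpifa1, computed after seeing the data, differed between the groups in all libraries but 1. Bpifb1 gave 18.4 to 60.6 counts per 100 counts of Bpifa1 in Normoxia (median 22.9) and 4.48 to 13.2 in Hyperoxia replicates 2 to 6 (median 7.02), with no overlap. Hyperoxia replicate 1 gave 50, from 1 count and 2 counts. Reg3g gave 13.4 to 85.7 counts per 100 counts of Bpifa1 in Normoxia (median 21.8) and 32.1 to 62.4 in Hyperoxia replicates 2 to 6 (median 45.4), so these ranges overlapped. Hyperoxia replicate 1 again gave 50 for Reg3g, from 1 count and 2 counts. Ltf gave 14.7 to 42.1 in Normoxia (median 21.1) and 15.7 to 47.8 in Hyperoxia replicates 2 to 6 (median 31.5), also overlapping, and 1150 in Hyperoxia replicate 1, over its 2 counts of Bpifa1. None of these ratios was tested.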
